A study of Mus musculus with 21 samples.

Results

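The pyruvate dehydrogenase complex and its kinases were described here as 10 genes: the kinases Pdk1, Pdk2, Pdk3 and Pdk4, the subunits Pdha1, Pdhb, Dlat and Pdhx, and the phosphatases Pdp1 and Pdp2. They were chosen by symbol, and 10 of 10 were found among the 55450 genes of the count table and passed the filter on low counts. RNA came from the left ventricle of 21 male mice of strain 129S6/SvEv, either carriers of the R403Q mutation in the cardiac myosin heavy chain, a model of hypertrophic cardiomyopathy, or wild-type (WT) littermates. Mice were fed a control diet (CD) or the same diet with empagliflozin (EMPA), an inhibitor of the sodium-glucose cotransporter, at 0.15 mg per g of diet from 9 to 10 weeks of age. The groups were WT-CD (n = 5), R403Q-CD (n = 7), WT-EMPA (n = 5) and R403Q-EMPA (n = 4). The study's methods place the RNA at 12 weeks of age after 2 weeks of EMPA, whereas the deposited description gives 16 weeks of treatment. The carriers are labelled Myh6+/R404Q, and gene counts do not show the mutation itself.

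Pyruvate dehydrogenase commits pyruvate from glycolysis and lactate to acetyl-CoA in the mitochondrial matrix, and so sets how much carbohydrate the heart can oxidize in place of fatty acids. The kinases phosphorylate the alpha subunit of its decarboxylase and switch the complex off, and the phosphatases remove the phosphate and switch it on. Pdk4 is known as the kinase gene that is induced in heart and muscle by fasting, by fatty acids acting on the nuclear receptor PPAR alpha, by FOXO transcription factors and by glucocorticoids. Transcript levels, which were measured here, report neither the amount of the proteins nor their phosphorylation.

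Totals ran from 23491535 to 43539684 counts per mouse, and the members had between 69 and 211325 counts in any mouse. At these depths 3 counts, taken as the floor, correspond to 0.0621 to 0.127 CPM (counts scaled to the library size), and this covers counting error only. Cardiomyocyte markers (8 genes, Myh6 and Ttn among them) summed to between 48732 and 100289 CPM, whereas 5 skeletal muscle markers summed to between 1.01 and 3.17 CPM. One R403Q-CD heart, replicate 2, stood apart from the others. It had the lowest cardiomyocyte sum (48732 CPM), the highest fibroblast sum (5173 CPM, against 976 to 2699 CPM in the other mice) and the lowest level of each of the 4 subunits. Several member differences are given with and without it, a choice made after seeing the data. Cages numbered 4 for CD and 3 for EMPA, and no cage held both diets, so that diets could be compared between cages only, whereas 6 cages held both genotypes.

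In the edgeR fit of all mice, 2 of the 10 members passed the threshold of 0.05 on the adjusted p-value, each in 1 of 7 contrasts. Pdk4 rose with EMPA when averaged over both genotypes, a contrast in which 2.91% of 17309 tested genes passed and 1.98% passed as higher. Pdp2 fell in R403Q hearts when averaged over both diets, where 10.9% of genes passed and 4.58% passed as lower. For genotype, a single member of 10 called in either direction is close to the share of all genes. No member passed in R403Q-CD against WT-CD (1.44% of genes passed), R403Q-EMPA against R403Q-CD (0.0116%), WT-EMPA against WT-CD (0.0289%), R403Q-EMPA against WT-EMPA (0.0578%) or the interaction of genotype and diet, in which edgeR called 0 genes and 567 had an unadjusted p-value under 0.05 (DESeq2 also called 0 genes). At an unadjusted edgeR p-value under 0.05 the members numbered 4, 2, 3, 1 and 0 in these 5 contrasts, where 20.9%, 13.4%, 11%, 14.7% and 3.28% of all genes had one, and DESeq2 called 1 member in the first (Pdp2) and 0 in the others. The median log2 fold change of the members was -0.11 for genotype and 0.02 for diet, against 0.01 and -0.01 over all tested genes. The p-values set each difference against the spread among the mice sampled. This fit has no cage term, so mice of the same cage count as independent, although diet varied between cages only.

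**Figure D1:**
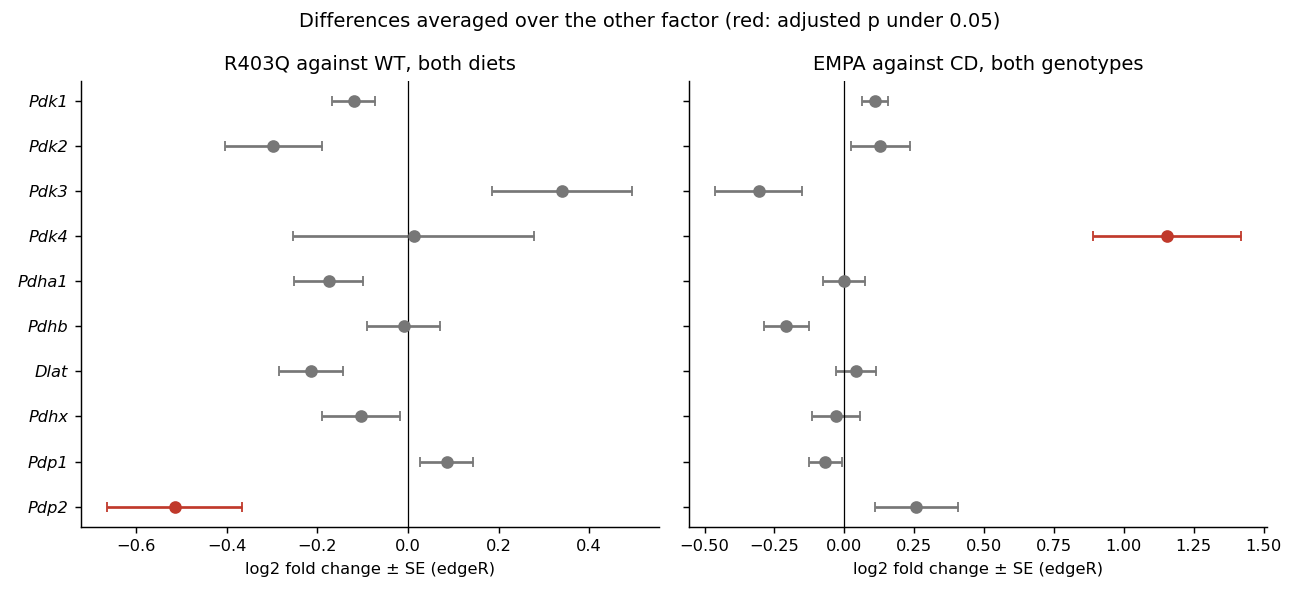
Log2 fold changes with their standard errors for the 10 members in R403Q against WT over both diets (left) and EMPA against CD over both genotypes (right), on separate horizontal scales. Red marks an edgeR adjusted p-value under 0.05: Pdp2 at -0.52 on the left and Pdk4 at 1.15 on the right.

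To compare levels between genes, CPM were divided by the length of the gene's exons in kilobases. In WT-CD hearts Pdha1, the alpha subunit that the kinases phosphorylate, led with 581 ± 36.8 CPM per kb (SD, n = 5), followed by Pdk4 with 499 ± 255 and Pdk2 with 183 ± 6.02. The beta subunit Pdhb stood at 139 ± 8.29, the acetyltransferase core Dlat at 102 ± 5.96, and Pdhx, which anchors dihydrolipoamide dehydrogenase to the core, at 60.05 ± 5.7 CPM per kb. Pdk1 was at 34.1 ± 2.55, Pdp1 at 14.6 ± 0.857, Pdp2 at 7.10 ± 1.15 and Pdk3 at 1.23 ± 0.235 CPM per kb. Neighbours in this order did not overlap among WT-CD hearts, except that the Pdk4 range of 261 to 865 CPM per kb spanned that of Pdha1, whose lowest value was 533.

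Pdk4 (ENSMUSG00000019577, chromosome 6 of GRCm38, 5483351 to 5496309, minus strand) varied more than any other member, with a 9.63-fold range over the 21 mice and a coefficient of variation of 55.3%. In WT-CD hearts the 5 values were 3039, 1018, 1527, 2263 and 918 CPM, and in WT-EMPA hearts they were 6185, 3081, 3831, 2175 and 4748 CPM. The 7 R403Q-CD hearts ran from 642 to 3133 CPM (median 1437), and the 4 R403Q-EMPA hearts had 2803, 3563, 4394 and 4972 CPM. All 9 EMPA hearts lay above the CD median of 1482 CPM and 6 of 9 lay above all 12 CD hearts, so the diets overlapped in part. Averaged over genotypes, Pdk4 was 2.22-fold higher with EMPA (log2 fold change 1.15, SE 0.264, edgeR adjusted p = 0.0253). The log2 fold change was 1.11 (SE 0.365, adjusted p = 0.217) in R403Q hearts and 1.19 (SE 0.382, adjusted p = 0.271) in WT hearts, neither of which passed alone. The difference between these effects was -0.08 with an interval of -1.14 to 0.99 (adjusted p = 0.999), so a difference between genotypes of up to about 1 log2 unit could not be told from none. Between genotypes, the log2 fold change of Pdk4 was 0.05 on CD (interval -0.65 to 0.75) and -0.03 on EMPA (interval -0.83 to 0.77).

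**Figure D2:**
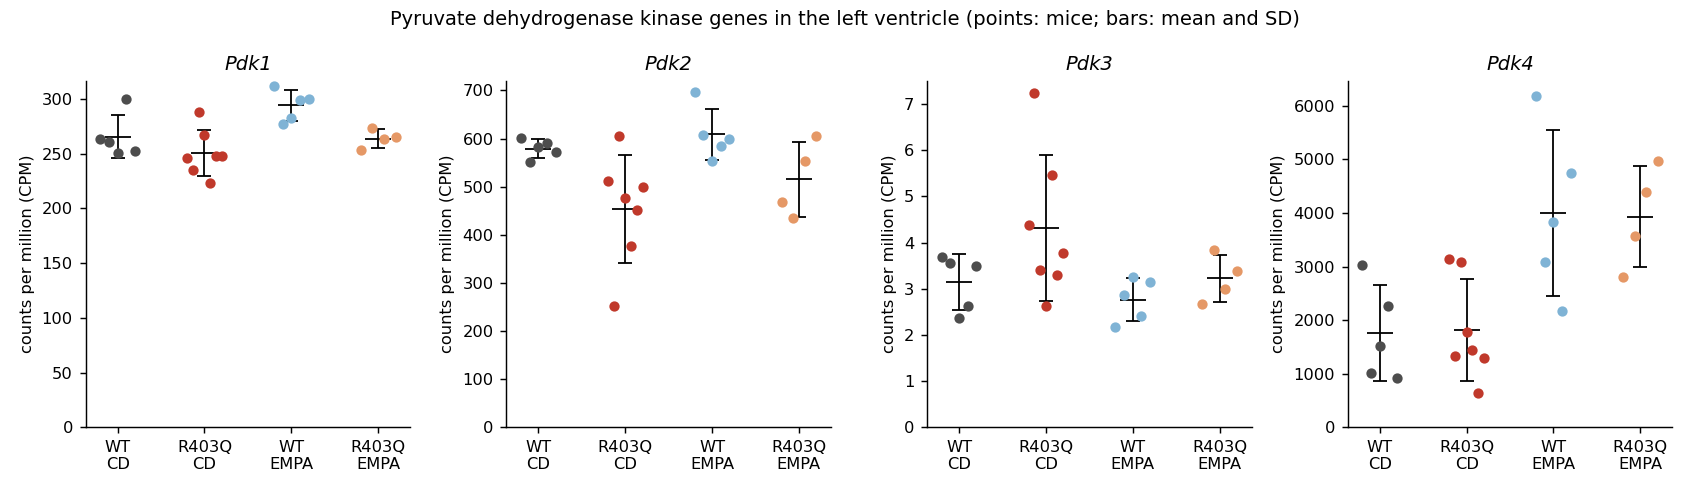
CPM of the 4 kinase genes in each mouse by group, with the mean and SD as bars, each on its own vertical scale from 0. For Pdk4, 6 of the 9 EMPA hearts lay above all 12 CD hearts, which reached 3133 CPM. For Pdk2, 8 of the 11 R403Q hearts lay below all 10 WT hearts.

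Pdk4 by cage is given as a description, with no test of differences between cages. Among the 4 CD cages, the pair of mice in one cage had 3039 CPM (WT) and 3133 CPM (R403Q), and in another the WT mouse had 918 CPM while its 3 R403Q cage mates averaged 1126 CPM (642 to 1437). The remaining CD cages averaged 1273 CPM (WT) and 1327 CPM (R403Q) in one case and 2263 and 2438 CPM (R403Q 1783 to 3094) in the other. The 2 EMPA cages with both genotypes held 2175 CPM (WT) and an average of 3183 CPM (R403Q), and 4748 and 4683 CPM, and the WT-only EMPA cage averaged 4366 CPM (3081 to 6185). In limma with cage as a random effect the diet effect on Pdk4 was 1.21 and no longer passed (adjusted p = 0.0550). It also missed the threshold without WT-CD replicate 5, WT-EMPA replicate 1, WT-EMPA replicate 5, R403Q-EMPA replicate 3 or R403Q-EMPA replicate 4 (adjusted p = 0.0507 to 0.0662), and over all alternatives the adjusted p ranged from 0.00514 to 0.0662 with a log2 fold change between 1.05 and 1.30.

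The other kinase genes did not pass in any contrast of the edgeR fit of all mice without a cage term, whereas Pdk2 passed on CD with cage as a replicate block (-0.47, adjusted p = 0.0489). Over both diets Pdk2 also passed with DESeq2 (adjusted p = 0.0391) and without R403Q-CD replicate 2 (adjusted p = 0.0292) or replicate 3 (adjusted p = 0.0270), and Pdk1 passed without replicate 3 (-0.14, adjusted p = 0.0377). Pdk2, the most abundant kinase transcript after Pdk4, had 551 to 600.5 CPM in WT-CD (n = 5), 253 to 606 CPM in R403Q-CD (median 476, n = 7), 554 to 697 CPM in WT-EMPA (n = 5), and 468, 435, 554 and 605 CPM in R403Q-EMPA. Although 8 of 11 R403Q hearts lay below all 10 WT hearts, the genotype difference of -0.30 (SE 0.106) missed the threshold (edgeR adjusted p = 0.0721). Pdk2 overlaps the antisense gene Gm11513, and Pdha1 overlaps Map3k15 on the opposite strand at its 3′ end. The methods give the counting as of proper pairs on the same strand, and whether this kept reads of opposite genes apart was not tested. Pdk1 ranged from 223 to 312 CPM over all mice with a coefficient of variation of 8.72%. All 4 R403Q-EMPA hearts (253 to 273 CPM) were below all 5 WT-EMPA hearts (277 to 312 CPM), as groups were for 6.77% of tested genes in this contrast, and the difference of -0.16 (SE 0.0715) did not pass (adjusted p = 0.308). Pdk3, at 2.17 to 7.24 CPM the rarest member, reached its highest value in R403Q-CD replicate 2, and its genotype difference was 0.34 (SE 0.155, adjusted p = 0.150), and 0.24 without that mouse (adjusted p = 0.216).

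The share of each kinase in the summed kinase level, taken per kilobase, followed Pdk4. Of the sum it supplied 66.6 ± 10.3% and 71.7 ± 10.5% on CD, for WT (n = 5) and R403Q (n = 7), and 81.8 ± 5.52% and 84.7 ± 2.16% on EMPA, for WT (n = 5) and R403Q (n = 4), with SD after each mean. The Pdk2 share was 28.0 ± 8.69% in WT-CD, 22.8 ± 8.73% in R403Q-CD, 15.1 ± 4.53% in WT-EMPA and 12.6 ± 1.7% in R403Q-EMPA, while the diet difference of Pdk2 in CPM was 0.13 on the log2 scale (edgeR adjusted p = 0.535). Kinase transcripts outnumbered phosphatase transcripts per kilobase by 32.6 ± 10.1 to 1 in WT-CD and 35.7 ± 12.8 in R403Q-CD, and by 65.9 ± 20.5 in WT-EMPA and 63.5 ± 12.7 in R403Q-EMPA. Against Pdha1, the transcript of their substrate, the ratio was 1.23 ± 0.45 in WT-CD, 1.37 ± 0.472 in R403Q-CD, 2.42 ± 0.82 in WT-EMPA and 2.59 ± 0.69 in R403Q-EMPA. These shares and ratios are descriptions and were not tested.

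**Figure D3:**
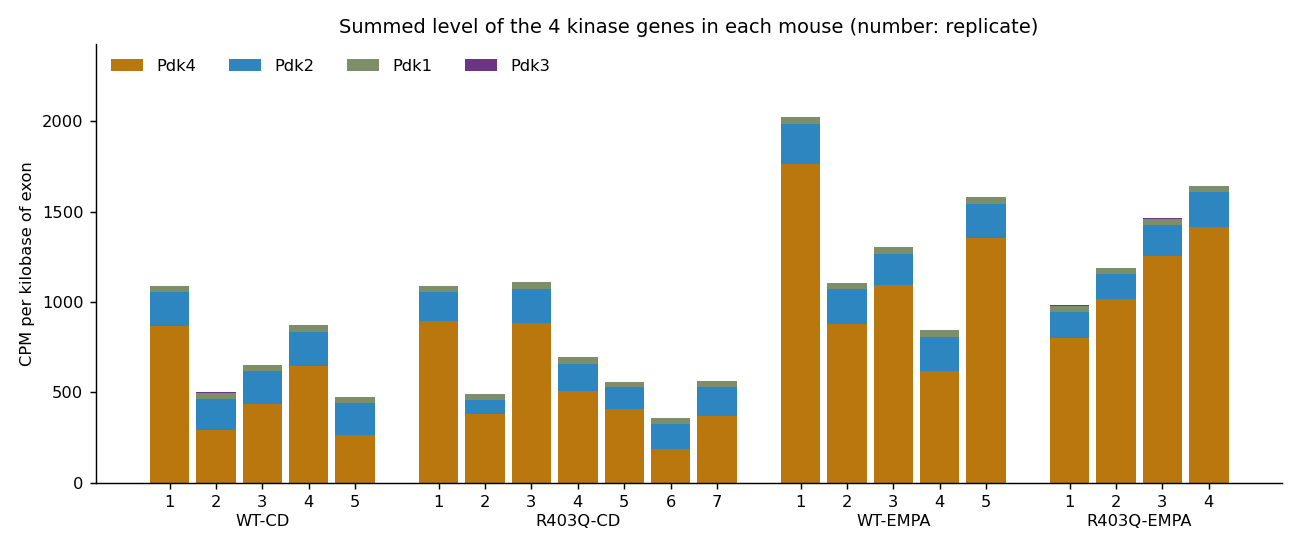
Level of the 4 kinase genes in each mouse, in CPM per kilobase of exon, stacked, with replicate numbers under the bars. Pdk4 (brown) makes up between 51.0% and 87.1% of the stack, and Pdk3 is too low to be seen in most bars.

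None of the 4 subunits passed in any contrast of the edgeR fit of all mice without a cage term, whereas Dlat passed on CD with cage as a replicate block (-0.31, adjusted p = 0.0475). Pdha1 (ENSMUSG00000031299) had 1990 to 2333 CPM in WT-CD, 1294 to 2210 CPM in R403Q-CD (median 1954), 2014 to 2246 CPM in WT-EMPA and 1783 to 2079 CPM in R403Q-EMPA, and 7 of 11 R403Q hearts lay below all WT hearts. Its genotype difference was -0.17 (SE 0.0759, edgeR adjusted p = 0.130), or -0.15 without R403Q-CD replicate 2 (adjusted p = 0.0698), and its diet difference was -0.00089 on the log2 scale, with an interval of -0.15 to 0.15. Dlat was 500.2 ± 29.1 CPM in WT-CD, 422 ± 68.2 in R403Q-CD, 505 ± 39.5 in WT-EMPA and 444 ± 23.3 in R403Q-EMPA (SD, n = 5, 7, 5 and 4). Its genotype difference of -0.21 (SE 0.0708) came nearest to the threshold among the subunits (adjusted p = 0.0542), and it passed with DESeq2 (adjusted p = 0.0248), limma on the log2 values (adjusted p = 0.0458) and cage as a random effect (adjusted p = 0.0423), but not with the cage block (-0.24, adjusted p = 0.0646). Pdhx stood at 236 ± 22.4, 204 ± 39.9, 214 ± 12.6 and 215 ± 19.8 CPM in the same order, a genotype difference of -0.10 (SE 0.0853, adjusted p = 0.441), or -0.07 without R403Q-CD replicate 2 (adjusted p = 0.483).

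Pdhb, the beta subunit, was lower in every WT-EMPA heart than in any WT-CD heart. It was 516, 497, 575, 560.5 and 527 CPM in WT-CD and 421, 429, 447, 481 and 374 CPM in WT-EMPA, so these groups did not overlap, as was the case for 3.45% of tested genes. The log2 fold change was -0.32 (SE 0.115) and did not pass (edgeR adjusted p = 0.307), nor did the diet effect over both genotypes (-0.21, SE 0.0811, adjusted p = 0.154). R403Q-CD hearts ran from 348 to 610 CPM (median 508) and R403Q-EMPA hearts had 539, 475, 410 and 418 CPM, which overlapped. Without R403Q-CD replicate 2, the lowest of the CD hearts, the diet effect over both genotypes was -0.24 and passed (adjusted p = 0.0343). Leaving out the lowest CD heart by itself raises the CD mean and so enlarges this decrease. The ratio of Pdhb to Pdha1 per kilobase, the subunits that join in the decarboxylase, was 0.238 ± 0.00468 in WT-CD, 0.253 ± 0.0112 in R403Q-CD, 0.195 ± 0.0163 in WT-EMPA and 0.231 ± 0.0162 in R403Q-EMPA.

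**Figure D4:**
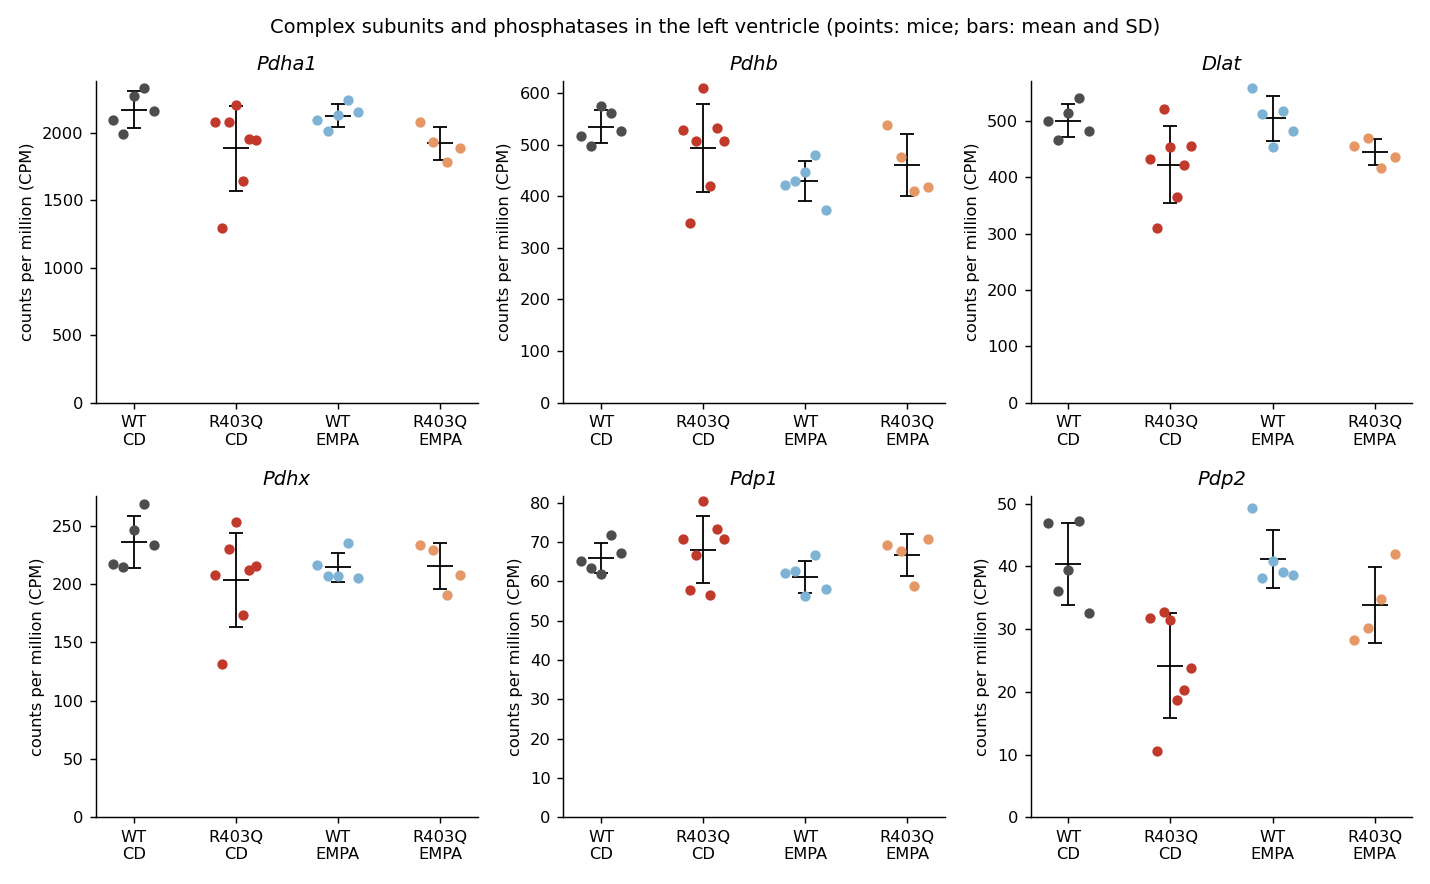
CPM of the 4 subunit genes and of both phosphatase genes in each mouse by group, with the mean and SD as bars, on vertical scales from 0. The lowest R403Q-CD point in the panels of the subunits and of Pdp2 is replicate 2 (10.6 CPM for Pdp2). All WT-EMPA points of Pdhb lie below the WT-CD points.

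Of the phosphatases, Pdp2 passed for genotype and Pdp1 did not. Pdp2 (ENSMUSG00000048371, chromosome 8 of GRCm38, 104591451 to 104599026, plus strand) was 46.9, 36.0, 39.4, 47.3 and 32.5 CPM in WT-CD and 49.3, 38.1, 40.9, 39.1 and 38.6 CPM in WT-EMPA. R403Q-CD hearts ran from 10.6 to 32.7 CPM (median 23.8) and R403Q-EMPA hearts had 28.3, 30.2, 34.8 and 42.0 CPM. 8 of 11 R403Q hearts lay below all 10 WT hearts, and Pdp2 was lower in R403Q mice in 6 of 6 cages with both genotypes. In an EMPA cage the difference was only -0.21 CPM (38.4 against 38.6 CPM). Lower R403Q values in all 6 cages were found for 6 of the 10 members (Pdp2, Dlat, Pdha1, Pdhx, Pdk1 and Pdk2) and for 9.73% of all tested genes. Pdk3 was higher in R403Q mice in all 6 cages, as were 10.2% of genes. Over both diets Pdp2 fell to 0.70 of the WT level (log2 fold change -0.52, SE 0.149, edgeR adjusted p = 0.0318). On CD alone the difference was -0.74 (SE 0.194, adjusted p = 0.0529) and on EMPA -0.29 (SE 0.224, adjusted p = 0.570), with an interaction of 0.46 (interval -0.13 to 1.05, adjusted p = 0.999), or 0.32 without R403Q-CD replicate 2. In R403Q hearts EMPA against CD was 0.49 (SE 0.208, adjusted p = 0.312), or 0.35 without that mouse (adjusted p = 0.372). By contrast Pdp1, the more abundant phosphatase transcript in heart here, was 65.9 ± 3.86, 68.0 ± 8.53, 61.1 ± 4.12 and 66.7 ± 5.3 CPM in WT-CD, R403Q-CD, WT-EMPA and R403Q-EMPA, with a genotype difference of 0.09 (SE 0.0588, adjusted p = 0.345). Pdp2 over Pdp1 per kilobase was 0.486 ± 0.0709 in WT-CD, 0.278 ± 0.0825 in R403Q-CD, 0.536 ± 0.0679 in WT-EMPA and 0.404 ± 0.0765 in R403Q-EMPA, a description with no test.

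With cage as a replicate block, which compares R403Q and WT mice of the same cage, the Pdp2 difference was -0.88 on CD (adjusted p = 0.0137). It was -0.22 on EMPA, which did not pass (adjusted p = 0.737), and -0.55 over both diets (adjusted p = 0.0294). In this fit Pdk2 (-0.47, adjusted p = 0.0489) and Dlat (-0.31, adjusted p = 0.0475) also passed on CD, where 1128 genes passed in place of 250. Without R403Q-CD replicate 2 the Pdp2 difference was -0.62 on CD (adjusted p = 0.0332) and -0.46 over both diets (adjusted p = 0.0104), and Pdk2 (-0.25, adjusted p = 0.0292) and Dlat (-0.19, adjusted p = 0.0312) passed over both diets. Pdk2 (adjusted p = 0.0270) and Dlat (adjusted p = 0.0176) also passed over both diets without R403Q-CD replicate 3, and Dlat without WT-EMPA replicate 3 (adjusted p = 0.0409). The call on Pdp2 over both diets was lost without WT-CD replicate 1, WT-CD replicate 4, WT-EMPA replicate 1 or R403Q-EMPA replicate 1, 2 or 3 (adjusted p = 0.0551 to 0.0772).

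Markers of other cells also went with genotype. Over both diets 10.9% of all tested genes passed for genotype in either direction and 4.58% passed as lower. Macrophage markers passed as higher in R403Q in 5 of 5 cases, and their sum was 148 to 282 CPM in WT and 255 to 502 CPM in R403Q hearts. All 6 fibroblast markers had positive differences and 2 passed, with sums of 976 to 1820 CPM in WT and 1497 to 5173 CPM in R403Q hearts. Of 8 cardiomyocyte markers 7 were negative (list median -0.11) and 1 passed, Myh6 at -0.39, which is the gene that the carriers' label names as mutated. The sum, which includes Myh6, was 86882 to 100289 CPM in WT and 48732 to 89258 CPM in R403Q hearts. In bulk tissue, fewer cells of a type and less RNA per cell cannot be told apart, and the part of cell composition in the Pdp2 difference was not tested. Endothelial (5), smooth muscle (4), erythroid (3), atrial (3) and fat (3 tested) markers had no member past the threshold for genotype.

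Reference sequence upstream of the members that passed, and of Pdk2, is shown with motif matches in capitals, because Pdk4 and Pdp2 are the members called in the edgeR fit of all mice and Pdk2 shares with Pdp2 a motif that no other listed member holds. Each window runs from 250 to 51 bases before the RefSeq transcription start on GRCm38.p6, 5′ to 3′ on the strand of the gene. Motifs were searched on both strands. The E-box of basic helix-loop-helix factors was CACGTG. The half-site of nuclear receptors such as the PPARs was AGGTCA. The forkhead site was searched as TGTTTAC. The CCAAT box was searched by the letters of its name. The GC box was taken as GGGCGG. The D-box of Dbp and its relatives was TTATGTAA. The windows are chr6:5496329-5496528 (minus strand) for Pdk4, chr8:104591222-104591421 (plus strand) for Pdp2 and chr11:95041422-95041621 (minus strand) for Pdk2, for which the nearer of 2 RefSeq promoters to the annotated gene start was taken.
Pdk4: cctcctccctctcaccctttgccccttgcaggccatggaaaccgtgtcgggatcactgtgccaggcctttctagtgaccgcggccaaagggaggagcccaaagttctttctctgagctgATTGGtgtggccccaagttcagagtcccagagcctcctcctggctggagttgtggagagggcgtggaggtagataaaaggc
Pdp2: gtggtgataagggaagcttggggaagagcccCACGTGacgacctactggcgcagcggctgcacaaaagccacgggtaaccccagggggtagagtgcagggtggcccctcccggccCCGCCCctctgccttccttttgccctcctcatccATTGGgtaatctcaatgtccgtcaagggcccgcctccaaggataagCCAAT
Pdk2: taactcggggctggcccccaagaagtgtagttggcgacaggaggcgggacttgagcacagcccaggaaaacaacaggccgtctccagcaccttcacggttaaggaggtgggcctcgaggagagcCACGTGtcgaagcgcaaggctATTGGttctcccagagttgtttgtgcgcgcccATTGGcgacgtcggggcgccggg
The Pdk4 window held 1 CCAAT match (37.4% of 32851 promoters of 300 bases hold one), and neither the nuclear receptor half-site (16.3%) nor the forkhead site (3.65%), which says only that these letters are not in this window. Pdp2 and Pdk2 were the only members of the 9 with a listed promoter to hold the E-box (7.15% of all promoters), starting 219 and 126 bases before the start.

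Of 11 genes known as targets of PPAR or of fasting, a set to which Pdk4 also belongs, all had positive diet differences, with a median of 0.46 against -0.01 over all genes. Of the 11, 7 passed as higher, where 1.98% of all tested genes did. They included Angptl4, a secreted inhibitor of lipoprotein lipase (1.57, edgeR adjusted p = 0.0053), Acot1 (1.48, adjusted p = 0.00466) and Acot2 (0.78, adjusted p = 0.00466), which hydrolyse fatty acyl-CoA, and Ucp3, an inner membrane carrier (0.92, adjusted p = 0.0211). Mlycd, which removes malonyl-CoA (0.46), and Cd36, a fatty acid transporter (0.26), passed as well. Angptl4 was 15.7 ± 7.23 CPM in WT-CD, 19.2 ± 8.67 in R403Q-CD, 52.8 ± 20.1 in WT-EMPA and 49.4 ± 7.5 in R403Q-EMPA. For genotype 1 of the 11 passed, Ucp2 at 0.57, where 10.9% of all genes passed in either direction. The diet calls on this and the other lists come from the edgeR fit without a cage term. They were not examined with cage as a random effect, where fewer genes passed for diet.

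Regulators of the kinase genes (11 genes) were all positive for diet, where 52.4% of all genes were negative and 1.98% passed as higher, and 1 passed, the forkhead factor Foxo1 (0.33, edgeR adjusted p = 0.0459). For genotype all 11 were negative, as were 47.2% of all tested genes, and 2 passed, where 4.58% of all genes passed as lower: Ppara, the nuclear receptor named above (-0.39, adjusted p = 0.0348), and Esrrg, an estrogen-related receptor of oxidative genes (-0.24, adjusted p = 0.0307). Ppara was 45.7 ± 5.44 CPM in WT-CD, 33.5 ± 9.83 in R403Q-CD, 50.2 ± 3.17 in WT-EMPA and 39.8 ± 4.72 in R403Q-EMPA. Of 9 glucocorticoid targets 4 were positive for diet and 1 passed, Tsc22d3 at -0.43, and for genotype Klf15 (-0.33) and Zbtb16 (-0.54) passed as lower and Tsc22d3 (0.30) as higher. Of 7 tested HIF targets, edgeR called 0 in either pooled contrast, with 1 at an unadjusted p under 0.05 in each.

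Clock genes and markers of other cells also went with diet. On the Arntl side of the clock all 5 were positive and 2 passed, Arntl (1.70, edgeR adjusted p = 0.0244) and Clock (0.36), and on the Dbp side all 10 were negative and 5 passed, Ciart (-1.43), Dbp (-1.02), Nr1d1 (-0.62), Hlf (-0.46) and Per1 (-0.34). The Dbp-side genes summed to 802 to 1113 CPM in CD and 537 to 975 CPM in EMPA hearts. Erythroid markers passed as higher in 3 of 3 cases, with sums of 1009 ± 227 CPM in CD (SD, n = 12) and 1504 ± 410 CPM in EMPA hearts (SD, n = 9). All 4 smooth muscle and all 3 atrial markers had negative diet differences, and 0 passed in edgeR, with 3 of each list at an unadjusted p under 0.05. The atrial list had a median of -2.40 and summed to 3.22 to 608 CPM in CD (median 22.7) and 2.12 to 78.1 CPM in EMPA hearts (median 7.86), and without R403Q-CD replicate 2 its median was -1.81, with 0 genes at an unadjusted p under 0.05 in edgeR. The smooth muscle list had a median of -0.79 with and without that mouse and sums of 449 ± 173 CPM in CD and 287 ± 80.2 CPM in EMPA hearts. Of 5 endothelial markers 1 passed as higher, Kdr at 0.35. Of 6 fibroblast markers 0 passed and 4 had an unadjusted p under 0.05, with a list median of -0.52 and sums of 1908 ± 1116 CPM in CD and 1582 ± 320 CPM in EMPA hearts. Without R403Q-CD replicate 2 the fibroblast median was -0.20, Pdgfra passed as higher and the CD sum was 1612 ± 454 CPM (SD, n = 11). Leaving that mouse out of the marker lists was chosen after seeing the data. The hour at which hearts were taken was not given in the sources used here, and the part of it, or of blood or of other cells in the tissue, in the Pdk4 difference was not tested.

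Genes around the complex were taken from the lists given here. Of 10 tested partners, among them Dld, the dihydrolipoamide dehydrogenase, and the pyruvate carriers Mpc1 and Mpc2, edgeR called 0 for genotype and for diet, with 1 at an unadjusted p under 0.05 in each. That gene was Pdpr, a regulatory subunit of the phosphatase, at -0.29 for genotype (adjusted p = 0.0748) and 0.23 for diet (adjusted p = 0.225). The sister complexes, which oxidize 2-oxoglutarate and branched-chain keto acids, had negative genotype differences in 9 of 9 genes, where 47.2% of all tested genes were negative. Their median was -0.28, against 0.01 over all genes. In this list 2 passed, where 4.58% of all genes passed as lower: Bckdk, the kinase of the branched-chain complex (-0.18, edgeR adjusted p = 0.0188), and its subunit Bckdhb (-0.33, adjusted p = 0.0418). R403Q-CD replicate 2 had the lowest sum of this list (2046 CPM, against 3169 to 5531 CPM in the other mice). Among 9 genes that supply or use pyruvate, 7 were negative for genotype (median -0.14). Gpt2, an alanine aminotransferase (-0.33), and Ldhd, a D-lactate dehydrogenase (-0.24), passed as lower in R403Q, where 4.58% of all genes did. Of 8 mitochondrial reference genes 7 were negative for genotype (median -0.13), and 8 of 8 were negative on CD (median -0.19). Over both diets 1 of the 8 passed for genotype, citrate synthase Cs, at -0.30, where 10.9% of all tested genes passed in either direction.

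The genes most like Pdk4 over the 21 mice, by Pearson correlation of log2 CPM, were Ucp3 (0.946), Gm17251 (0.933), Angptl4 (0.928), Acot4 (0.896) and Heca (0.890). Each of the 5 was higher in EMPA against CD over both genotypes, which their choice by likeness to Pdk4 in the same mice largely fixes. The mean of the 4 subunits was most like Ndufs1 (0.985), Sod2 (0.975), Slc25a11 (0.974), Ndufa10 (0.972) and Sucla2 (0.972), all nuclear genes of mitochondrial proteins, none of which passed for genotype or diet. These are descriptions, since the points share libraries and cages and R403Q-CD replicate 2 lies far out for the subunits. Without it, over 20 mice, the correlations with the subunit mean were 0.930 to 0.970 and those with Pdk4 were 0.887 to 0.957, a choice made after seeing the data.

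**Figure D5:**
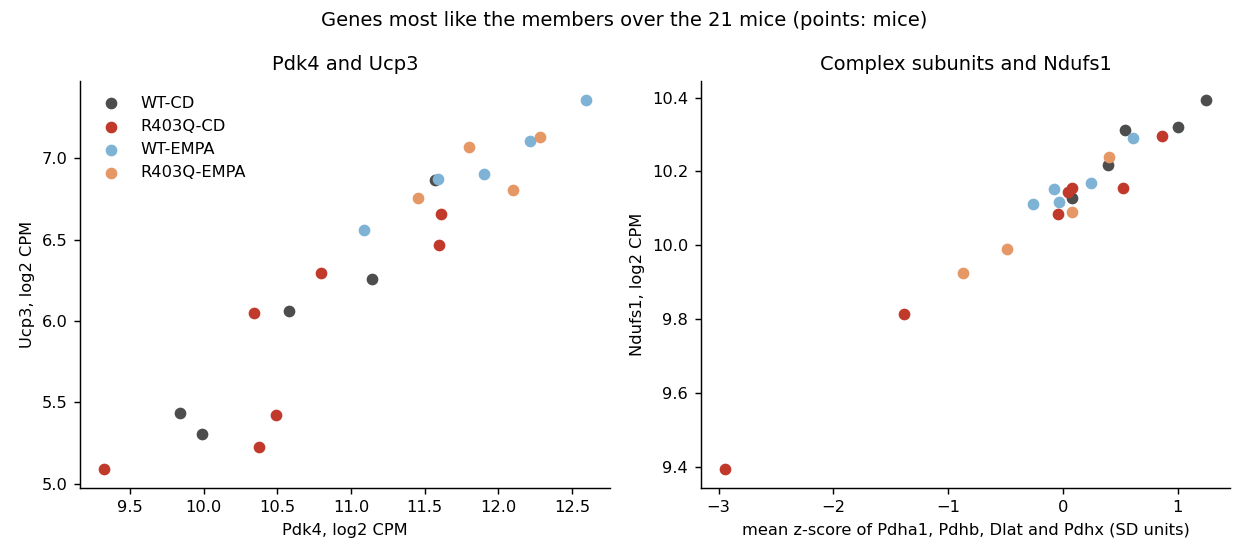
Log2 CPM of Ucp3 against Pdk4 (left) and of Ndufs1 against the mean z-score of the 4 subunits (right), 1 point per mouse, coloured by group. The correlations are 0.946 and 0.985 over 21 mice, and the point far to the lower left on the right is R403Q-CD replicate 2.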

How the data were processed

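Per the labels and the methods of the study, poly(A) RNA of left ventricle was sequenced in pairs and aligned to mm10 (GRCm38) with STAR 2.6.0c. The deposited counts are whole numbers that the authors made with featureCounts (Subread 1.6.2), from uniquely aligned proper pairs on the same strand, without mitochondrial genes. The deposited log2 values come from the variance-stabilizing transformation by the authors with DESeq2 1.32.0 and served as an alternative.

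Counts of 4 groups were fitted together in R 4.3.3 with edgeR 4.0.16 (filterByExpr with a minimum count of 10, TMM scaling, quasi-likelihood F test, Benjamini-Hochberg adjustment over 17309 genes, threshold 0.05). Intervals are 2 SE either way. CPM used TMM library sizes, log2 CPM a prior count of 2, and lengths the exon union of the GENCODE annotation of GRCm38 at hand, which named 55190 of 55450 genes. The script was tested on simulated data. Totals were 23491535 to 43539684 counts. Contrasts over both diets or genotypes average the simple contrasts.

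Members and lists were chosen with earlier results of these data known. Named genes are the 10 members, list genes past the threshold in any contrast, up to 2 genes with the smallest p-value per list and contrast, and the 5 tested genes most correlated with Pdk4 and with the subunit mean. The values of 1 list gene are not reported here. Cages came from the labels, and a fit with cage as replicate block could be made for genotype contrasts only. Alternatives were DESeq2 1.42.0, no filter, library size scaling, limma 3.58.1 on the log2 values, a fit of 3 groups, both cage fits and leaving out each mouse.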

Additional observations from a re-analysis of the deposited data

Results flagged for a closer look

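In 40 groups of 4 to 7 mice, 10 genes by 4 groups, 2 values lay apart from the rest of their group by Dixon's criterion, which chance meets in about 1 group in 20. Pdk1 in WT-CD replicate 4 was 299.8 CPM, while the other WT-CD hearts had 251 to 263 CPM. Pdp2 in WT-EMPA replicate 1 was 49.3 CPM, while the other WT-EMPA hearts had 38.1 to 40.9 CPM.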

How the results depend on the processing

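Of 70 member fold changes (10 genes in 7 contrasts), 55 kept their direction under all alternatives run, and the 15 that turned had a log2 fold change of at most 0.081 in size. The number of members called in R403Q-CD against WT-CD was 0, and 1 (Pdp2) with DESeq2 (adjusted p = 0.00974), no filter (0.0401), library size scaling (0.0463), limma on the log2 values (0.0452) or cage as a random effect (0.0230), 3 with cage as a replicate block, and 0 to 2 when 1 mouse was left out. Over both diets it was 1, and 3 with DESeq2, 2 with limma on the log2 values, 2 with cage as a random effect and 0 to 4 without 1 mouse. For diet over both genotypes it was 1, 0 with cage as a random effect and 0 to 2 without 1 mouse. In the other 4 contrasts no member passed in any fit.

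All genes called numbered 250 in R403Q-CD against WT-CD (DESeq2 984, fit of 3 groups 98, cage as replicate block 1128, cage as random effect 475), 2 in R403Q-EMPA against R403Q-CD (DESeq2 145, library size scaling 5, fit of 3 groups 0), 5 in WT-EMPA against WT-CD (DESeq2 96, library size scaling 0, cage as random effect 1), 10 in R403Q-EMPA against WT-EMPA (DESeq2 303, cage block 0), 1883 for genotype (cage block 944) and 504 for diet (DESeq2 984, no filter 314, cage as random effect 113). Without 1 mouse they ran from 31 to 1045, 0 to 12, 0 to 12, 1 to 201, 961 to 2764 and 122 to 929. The cage block changed no other member call. The cause of these shifts was not tested.

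Directions turned as follows. Dlat in WT-EMPA against WT-CD was -0.0015 with cage as a random effect. In R403Q-EMPA against WT-EMPA, Pdhx was -0.0021 with DESeq2, -0.0047 with limma on the log2 values, -0.036 with the cage block and -0.0019 with the random effect, and Pdk4 was 0.033 with library size scaling, 0.022 with limma, 0.26 with the cage block and 0.071 with the random effect. The Pdk4 interaction was 0.0018 with limma, 0.12 with the cage block and 0.024 with the random effect. For genotype Pdhb was 0.045 with library size scaling, and for diet Pdha1 was 0.0080 with limma and 0.0020 with the random effect. Without 1 mouse, log2 fold changes ran for Pdk4 from -0.13 to 0.34 in R403Q-CD against WT-CD, from -0.18 to 0.19 in R403Q-EMPA against WT-EMPA, from -0.37 to 0.13 in the interaction and from -0.080 to 0.16 for genotype. Those of Pdha1 ran from -0.051 to 0.068 in R403Q-EMPA against R403Q-CD, from -0.022 to 0.10 in the interaction and from -0.040 to 0.020 for diet, and of Pdhx from -0.0062 to 0.14 in R403Q-EMPA against R403Q-CD, from -0.034 to 0.051 in R403Q-EMPA against WT-EMPA and from -0.073 to 0.00090 for diet. Pdp1 ran from -0.076 to 0.022 in R403Q-EMPA against R403Q-CD, Dlat from -0.026 to 0.049 in WT-EMPA against WT-CD and from -0.0056 to 0.12 in the interaction, Pdp2 from -0.044 to 0.091 in WT-EMPA against WT-CD and Pdhb from -0.052 to 0.018 for genotype.

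The lowest count of any member was 69 (Pdk3), and the effect of depth was not tested. Cages lie within diets, so diet can be set against the spread among 4 CD and 3 EMPA cages, as with cage as a random effect, but not within a cage.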
